A study of Mus musculus with 145 samples.

Results

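Cep112 encodes a coiled-coil protein of the centrosome. In mammary tumours carrying mobile piggyBac transposons, the gene and the DNA around it held 431 insertion positions in 1 tumour, 261 of them within the gene. Another tumour of the same mouse had 14 positions within the gene, and none of the remaining tumours had more than 2. Cep112 is 1 of 13391 gene regions in the deposited data. It was chosen by these numbers of insertion positions per tumour. Every site inside its deposited region, and within 2 Mb on each side, was taken. A position and strand read in several tumours was assigned to the one with the highest read count (a kept position). The number of kept positions per tumour is therefore a description and carries no test.

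The resistant group consisted of 51 tumours from 25 mice that had received 30 mg/kg BYL719 (alpelisib, an inhibitor of PI3K alpha) daily from a volume of 250 mm3 and had grown over at least 3 measurements in 3 weeks. The untreated group consisted of 94 libraries, each counted as a tumour, from 23 mice without the drug. They cover 93 combinations of mouse and gland, since untreated libraries 58 and 88 share both. Each of these held 0 window positions, and leaving out library 88 changed no count of positions below. Mice of both groups carried WAP-Cre, the Cre-dependent alleles LSL-PB and LSL-PIK3CA(H1047R), and the donor ATP1. Expressed in mammary epithelium from late pregnancy, Cre switches on the piggyBac transposase (PB) and a mutant PI3K alpha that drives the tumours, while ATP1 supplies transposons from an array on chromosome 10. Tumours are numbered within their group. DNA of a whole tumour was measured, so the number of reads at a position reflects both how many cells carry it and how well it amplifies. Several tumours can come from 1 mouse, and these are not independent.

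PiggyBac is a cut-and-paste transposon. The transposase excises it from 1 place and reinserts it at a TTAA elsewhere, often on the same chromosome and close to the place it left, which is called local hopping. The chromosome with the donor array is therefore dense in insertions. An insertion far from the donor can in turn become a second launch site, from which the element jumps again. No file records where an element sat before it landed, so whether the Cep112 positions came from such a launch site was not tested. What follows gives their number, spacing, orientation and reads.

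The sequences at these sites show the target of the transposase. In resistant tumour 12, which held most of the positions, the most-read site lay at position 108548655 of chromosome 11 (build mm10) on the minus strand. On its own strand each inserted arm is followed by TTAA, in capitals, and then genomic sequence. The 5 most-read window sites of this tumour, and the 2 most-read window sites kept in resistant tumour 11 from the same mouse, read as follows.
Tumour 12, minus strand, chr11:108548652-108548659, 4088 reads: TTAAgcca
Tumour 12, plus strand, chr11:108542894-108542901, 1522 reads: TTAAatga
Tumour 12, plus strand, chr11:108757595-108757602, 991 reads: TTAAgcat
Tumour 12, minus strand, chr11:108543179-108543186, 975 reads: TTAAacca
Tumour 12, minus strand, chr11:108564736-108564743, 696 reads: TTAAataa
Tumour 11, minus strand, chr11:108662780-108662787, 180 reads: TTAAatgg
Tumour 11, plus strand, chr11:108546761-108546768, 91 reads: TTAAtgtc
All 7 lie inside the Cep112 region. The bases after the TTAA differ from site to site, so these are separate places in the genome and not copies of 1 place.

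A TTAA reads the same on both strands and can take the transposon in either orientation. Since only the 5' arm was amplified, an element in 1 orientation gives a site on 1 strand. In tumour 12, 21 TTAA sites of the window were listed on both strands. The 5 with the most reads are printed because they show, base for base, the same TTAA listed in both orientations, here as the plus strand of mm10.
chr11:108548652-108548663, 4088 minus-strand and 51 plus-strand reads: tggcTTAAggac
chr11:108803012-108803023, 105 minus-strand and 16 plus-strand reads: gttgTTAAatac
chr11:108624233-108624244, 12 minus-strand and 79 plus-strand reads: cacaTTAActaa
chr11:108565227-108565238, 51 minus-strand and 32 plus-strand reads: ctttTTAAaatt
chr11:108550503-108550514, 27 minus-strand and 25 plus-strand reads: tcccTTAActat
The first of them holds the most-read site of the tumour. These 21 made up 5.38% of the 390 distinct TTAA sites that tumour 12 held in the window, against 3 of 2928 (0.102%) in the rest of its genome. In tumour 11 it was 1 of 24 in the window and 1 of 3912 elsewhere. Kept positions were also far denser in the window than elsewhere in tumour 12, and the part of that density in the count was not tested.

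The deposited Cep112 region ran from 108423266 to 108860615 of chromosome 11 (437.35 kb), and RefSeq places the gene on the plus strand from 108425215 to 108860615 of the same build. With 2 Mb on each side the window measured 4.44 Mb, or 0.163% of the mapped genome extent. It held 753 sites. Of these, 14 had no reads in any tumour, 0 were tied between tumours, and 739 were kept. In the Cep112 region itself 304 sites were listed and 302 were kept. A TTAA was recorded at 90.8% of kept window positions and at 85.1% of all 185824 kept positions of the series. Library totals ran from 51 to 1604365 reads, with medians of 136932 in resistant tumours and 48339 in untreated tumours. Exons and introns could not be assigned without gene models. No kept position of any tumour fell within the RefSeq promoter windows of the gene, which reach from 250 bases before to 50 after each of 3 annotated starts. These windows are a very small part of the 437.35 kb region, so nothing is read from this absence.

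Within the Cep112 region, resistant tumours held 284 kept positions and untreated tumours held 18. The 284 lay in 9 of 51 resistant tumours (17.6%, 95% Clopper-Pearson interval 8.40 to 30.9%) from 8 mice. The 18 lay in 14 of 94 untreated tumours (14.9%, 8.39 to 23.7%) from 13 mice. The groups thus differed many-fold in positions, while the intervals of the share of tumours hit overlapped over most of their range. Resistant tumour 12 alone held 261 positions, and resistant tumour 11 held 14. Among the other resistant tumours with any, the count was 1 or 2, and among untreated tumours it was also 1 or 2. Gene regions outside chromosome 10 in which some tumour held at least 10 kept positions made up 0.406% of 12557. For resistant tumours the percent was 0.334 and for untreated tumours 0.0876. Regions with at least 100 in 1 tumour made up 0.0239%, that is 3 regions, and Cep112 had the most of all. On chromosome 10, with the donor, 2.64% of 834 gene regions had a tumour of at least 10, and the highest count there was 89. Since the rule used these counts, nothing is read from the position of Cep112 among them.

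Tumour 12 held 86.4% of all kept positions of the Cep112 region (82.04 to 90.1%) and 91.9% of those of the resistant group (88.1 to 94.8%). Without its positions the resistant group held 23 in 8 tumours. When tumour 12 was left out before shared positions were assigned, the resistant group held 38, because positions it shared with others then fell to them. Without tumours 12 and 11 it held 9 positions in 7 tumours, and no tumour held more than 2. The excess of the resistant group in number of positions thus came from tumours of 1 mouse. These intervals cover counting error alone. Reads were amplified by PCR with no molecular identifiers, and positions of 1 tumour share their cells, so neither count independent events.

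**Figure D1:**
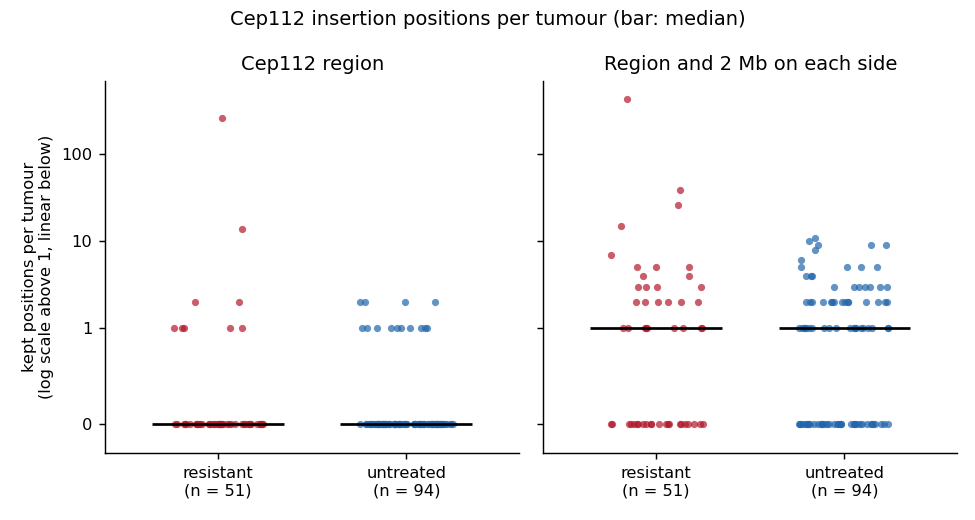
Kept positions per tumour in the Cep112 region (left) and in the region with 2 Mb on each side (right), with resistant tumours left of untreated tumours. Each point is a tumour, bars are medians, and the axis is logarithmic above 1. Resistant tumour 12 stands at 261 and 431, whereas no untreated tumour exceeds 2 in the region or 11 in the window.

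Over the whole window the resistant group held 574 kept positions in 29 of 51 tumours (56.9%, 42.2 to 70.7%). The untreated group held 165 in 56 of 94 tumours (59.6%, 48.95 to 69.6%). The median was 1 position per tumour in both groups. At least 10 positions were held by 4 resistant tumours, namely tumour 12 with 431, tumour 26 with 39, tumour 11 with 26 and tumour 10 with 15. They were held by 2 untreated tumours, tumour 22 with 11 and tumour 3 with 10. Just under that threshold came untreated tumours 4, 13 and 43 with 9 each and untreated tumour 35 with 8. When at least 2 reads per position were required, 0 untreated tumours reached 10, and with at least 10 reads 2 resistant tumours did. Without tumour 12 the window held 0.198% of the kept positions of the resistant group, against 0.150% in untreated tumours, and without tumours 12 and 11 it held 0.171%. By length alone 0.163% would fall there.

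Had its kept positions been spread evenly over the genome, tumour 12 would have had 5.68 in the window, so its 431 were 75.8-fold over that number. Tumour 11 had 3.85-fold over its 6.76. Tumour 26 had the deepest library of the series and 17301 kept positions, so that its 39 were 1.38-fold over 28.2. Resistant tumour 10 was 1.64-fold over, and untreated tumours 22 and 3 were 1.66-fold and 1.49-fold over. Tumour 12 had 93082 reads, below the median of its group, and 3486 kept positions. Among tumours with fewer than 10 window positions, 3 resistant and 4 untreated tumours had a higher ratio than tumour 11, from 3.90-fold to 21.1-fold, on 1 to 9 positions each. The ratio of tumour 12 was above all of these.

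Tumour 12 also differed from the group medians in how its positions were spread over chromosomes. The window held 12.4% of its kept positions and 19.4% of its reads. Chromosome 11 held 17.2% of its kept positions, against medians of 4.18% over resistant and 3.94% over untreated tumours. Outside the window chromosome 11 held 170 of its 3055 other positions, or 5.56%. Chromosome 10, which carries the donor, held 6.08%, against medians of 18.8% over resistant and 22.9% over untreated tumours. Only 1 resistant and 5 untreated tumours had a lower share on chromosome 10, and each of these kept between 2 and 75 positions in all. Outside the window chromosome 10 held 6.94% of the positions of tumour 12. Low shares were also found in resistant tumour 26, with 6.90% of 17301 kept positions, and resistant tumour 10, with 8.27% of 5610. The shares of the other chromosomes are in the plot by chromosome.

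**Figure D2:**
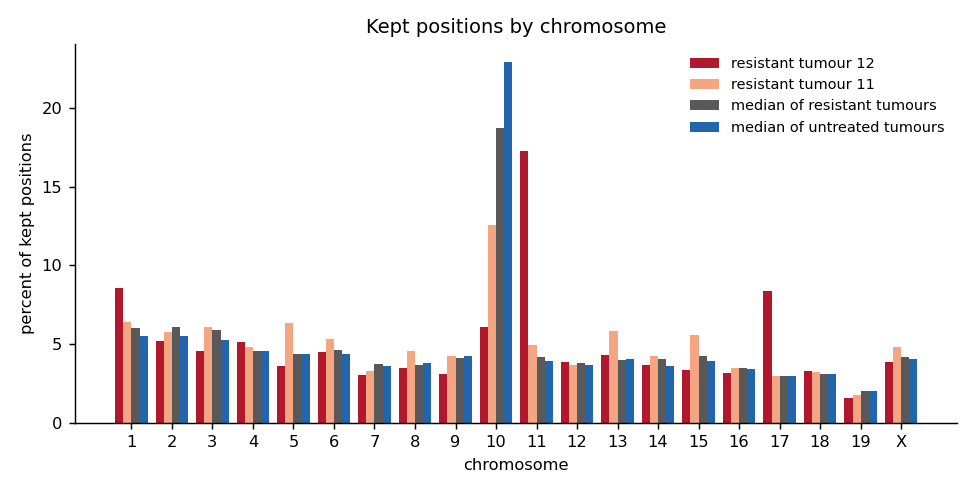
Percent of kept positions on each chromosome in resistant tumour 12, resistant tumour 11, the median resistant tumour and the median untreated tumour. In tumour 12 chromosome 11 stands at 17.2% and chromosome 10 at 6.08%, whereas both group medians are highest at chromosome 10.

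The positions of tumour 12 were packed most tightly beside its most-read site and reached much further to one side. Within 10 kb of that site they stood at 160 per 100 kb on the lower side and 310 on the higher side. From 10 to 50 kb the density was 27.5 on the lower side and 150 on the higher side, and from 50 to 100 kb it was 14 and 80. From 100 to 250 kb it was 2 and 42, and from 250 to 500 kb it was 0 and 36.4. Between 500 kb and 1 Mb it was 0.4 and 14.8, and between 1 and 2 Mb it was 0.4 and 2.5. The density fell in every step on the higher side, and almost none were left beyond 100 kb on the lower side. In all 44 positions lay below the site and 386 above it (89.6%), and 166 of the 431 lay within 100 kb. The median distance was 30.2 kb below and 246 kb above.

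The gene itself lies along that slope. In the Cep112 region 36 positions fell in the 125 kb below the most-read site and 224 in the 312 kb above it. A further 162 lay in the window beyond the 3' end of the gene, against 8 before its 5' end. Between neighbouring positions the median gap was 1321.5 bp (quartiles 263.5 and 3779.75 bp), and 193 of the gaps were at most 1 kb. These gaps include TTAA sites listed on both strands and other positions only a few bp apart. With positions within 10 bp counted once, 400 window positions of tumour 12 remained. Elsewhere on chromosome 11 tumour 12 had 120 positions below the window and 50 above it. The higher side is the direction in which Cep112 is transcribed.

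In tumour 11, set against the same site, 1 of its 26 kept positions lay below and 25 lay above. Its most-read kept window site, with 180 reads, lay 114 kb higher. Set against that kept site, 7 positions lay below and 11 above within 500 kb (61.1%). Tumour 11 had more reads, 382, at the most-read site of tumour 12, where the position was kept in tumour 12. Before shared positions were assigned, tumour 11 listed 4 positions below and 22 above the site of tumour 12 within 500 kb. In the other resistant tumours 42 lay below and 75 above, spread over the window, with 4 of 117 within 100 kb. In untreated tumours 89 lay below and 76 above, with 7 of 165 within 100 kb. In neither of these sets did positions gather near the site.

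**Figure D3:**
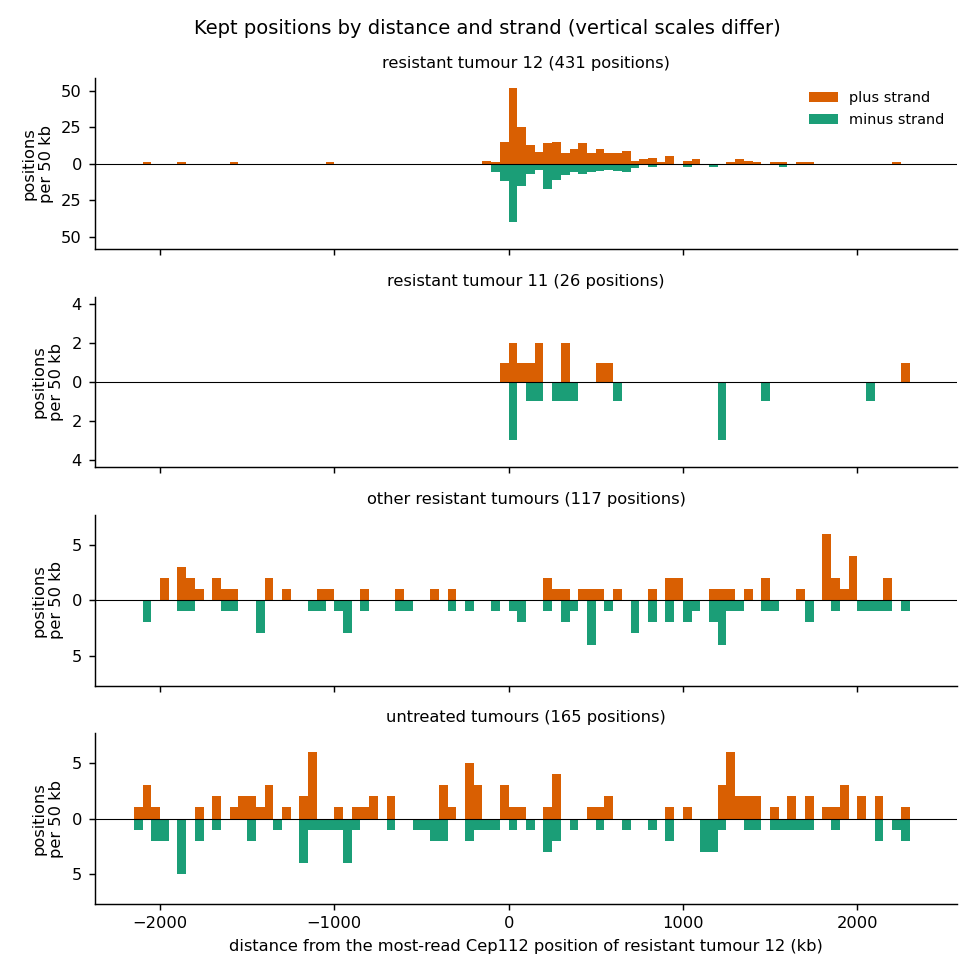
Kept positions per 50 kb by distance in kb from the most-read Cep112 position of resistant tumour 12, with plus-strand positions above the line and minus-strand positions below it. The panels show resistant tumour 12, resistant tumour 11, the other resistant tumours and the untreated tumours, each with its own vertical scale. In tumour 12 the positions pile up at the site and trail to the right, with 386 above and 44 below, tumour 11 has 25 above and 1 below, and in the lower panels the positions are scattered.

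Both orientations were common. In tumour 12, 252 kept window positions were on the plus strand, which is the strand of Cep112, and 179 on the minus strand, so that 58.5% were plus (53.7 to 63.2%). A two-sided exact binomial test against equal strands gave p = 0.00051, and 0.00306 after Benjamini-Hochberg adjustment over the 6 tumours tested. The test takes the positions of a tumour as independent, but they share their cells, so its p-value can be too small. In the same tumour 49.8% of 3055 positions elsewhere were plus. The excess was smaller inside the gene, with 147 plus and 114 minus (56.3%, adjusted p = 0.237 by the same exact test), so the call did not hold for the Cep112 region alone. It also did not hold for the 88 window positions with a deposited div number, which the headers leave undefined, of at least 2 (62.5%, adjusted p = 0.0985 by the same exact test). In the other high tumours the strands were 20 plus and 19 minus in resistant tumour 26, 12 and 14 in tumour 11, and 7 and 8 in tumour 10. They were 6 and 5 in untreated tumour 22, and 4 and 6 in untreated tumour 3, with an adjusted exact p of 1 in each of these 5.

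Most positions of tumour 12 had few reads, and a handful had many. Reads per kept window position ran from 1 to 4088 with a median of 17, against a median of 16 at its other kept positions. There were 47 positions with 1 read, 288 with at least 10 and 16 with at least 100. Positions with at least 100 reads made up 3.71% in the window and 1.64% elsewhere in the tumour. The site with 4088 reads was the most-read kept position of the whole tumour. Of its 12 most-read kept positions 5 lay in the Cep112 region, namely those printed above. On the higher side median reads were 18 within 10 kb, 20.5 from 10 to 50 kb, 19.5 from 50 to 100 kb and 17 from 100 to 250 kb. They were 17 from 250 to 500 kb, 13 from 500 kb to 1 Mb and 15 from 1 to 2 Mb. Thus the medians did not rise between 10 kb and 1 Mb, and those beyond 500 kb were below all nearer ones. At TTAA lay 95.4% of its window positions and 95.9% of the others, so the window positions resembled the rest of the tumour in sequence context and in typical reads.

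**Figure D4:**
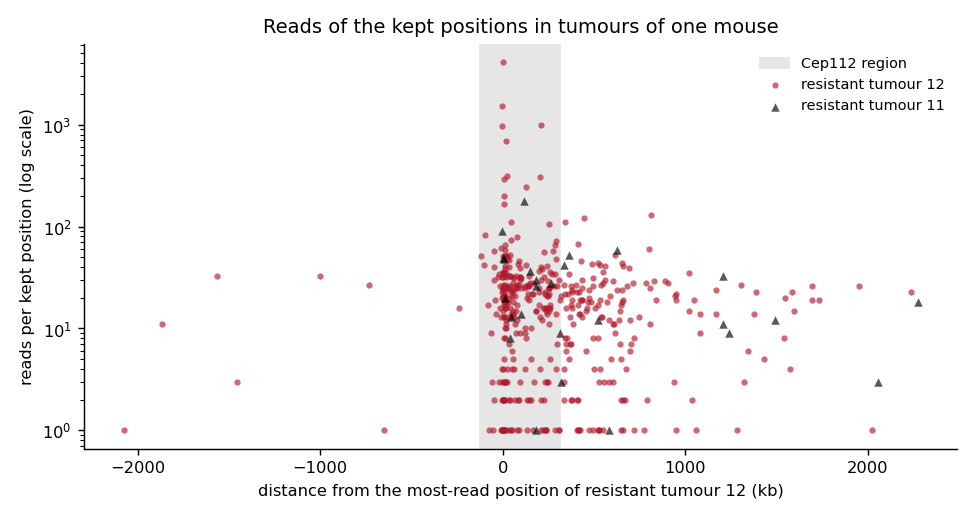
Reads per kept position (log scale) by distance in kb from the most-read position of resistant tumour 12, for resistant tumours 12 and 11 of the same mouse, with the Cep112 region shaded. The site at 0 kb has 4088 reads. Positions with at least 100 reads are 16 in tumour 12 and 1 in tumour 11, and lower counts extend to the right beyond the gene.

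Resistant tumours 11, 13 and 38 came from the mouse of tumour 12. Before shared positions were assigned, tumour 12 listed 442 window positions, tumour 11 listed 39, tumour 13 listed 5 and tumour 38 listed 0. Tumours 11 and 12 shared 16, or 41.03% of the window positions of tumour 11 and 3.62% of those of tumour 12, whereas over the whole genome they shared 126 of the 4490 sites that tumour 11 listed (2.81%). At its most-read site tumour 12 had 4088 reads and tumour 11 had 382, that is 9.34% as many. At the window sites with 1522, 991, 975 and 696 reads in tumour 12, tumour 11 had 49, 38, 11 and 35. Over the 6 most-read window sites of tumour 12 this ratio ran from 1.13% to 9.34%. At 6 shared positions tumour 11 had more reads than tumour 12, among them 108728905 with 30 reads in tumour 11 and 3 in tumour 12. Whether cells, insertions or library molecules were shared between these tumours was not tested.

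Tumour 11 also held positions of its own. Of its 39 listed positions 23 were absent from tumour 12, and its most-read kept site in the window, 108662783 with 180 reads, had 82 reads in tumour 13 and none in tumour 12. Its kept window positions had a median of 19 reads, the same as its positions elsewhere. Tumour 13 shared 3 positions with tumour 12, with 1 read each, and kept none. Of the 442 positions listed by tumour 12, 405 (91.6%) were listed by no other tumour. Resistant tumour 6, from another mouse, shared 9 of its 10 listed window positions with tumour 12, each with 1 to 4 reads, and kept none of these 9. That was 90% of its window positions, against 6.74% of its listed sites over the whole genome. A higher shared percent in the window than over the genome was thus not limited to tumours of the same mouse.

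In the other high tumours few window positions lay in Cep112 itself. In resistant tumour 26, 29 of 39 window positions had 1 read, and only 48.7% lay at TTAA, against 41.2% elsewhere in that tumour. It held 2 positions in the Cep112 region, and its 8 window positions with at least 100 reads lay between 110358062 and 110734164, beyond the 3' end of the gene by more than 1 Mb. Resistant tumour 10 held 1 position in Cep112, and its best window site, at 109001547, had 3394 reads, the second most among its kept positions. Several other kept positions of tumour 10 lay near that site, among them 108895504, 108960586 and 109006254 with 12, 29 and 14 reads. Whether they gathered there beyond an even spread was not tested. Untreated tumour 22 held none in Cep112 and untreated tumour 3 held 2. Apart from tumours 12 and 11, then, the window counts above 10 did not rest on Cep112.

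In the remaining tumours Cep112 held 1 or 2 positions each. The 9 positions of the 7 other resistant tumours had 1 to 172 reads with a median of 13, and 3 were on the plus strand and 6 on the minus strand. The 18 positions of the 14 untreated tumours had 1 to 112 reads with a median of 23, with 10 on the plus strand and 8 on the minus strand. TTAA was recorded at 6 of the 9 and at 16 of the 18. The most reads were 172 in resistant tumour 44 and 112 in untreated tumour 42. Ranked by reads among all kept positions of its tumour, the best Cep112 position stood between rank 52 and rank 2880 in the resistant tumours, with a median of 666, and between rank 50 and rank 2688 in the untreated tumours, with a median of 675. In 0 of these tumours was a Cep112 insertion among the 10 with the most reads, whereas in tumour 12 it held the top place.

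The gene regions around Cep112 followed the same asymmetry. Some of these regions overlap, and a position in overlapping regions was counted in each of them. On the lower side 20 gene regions held 38 positions in resistant and 74 in untreated tumours by this count, and tumour 12 hit 7 of them with 1 position in each. On the higher side 18 gene regions held 75 positions in resistant and 35 in untreated tumours, and tumour 12 hit 15 of them with 49 positions. Axin2, which encodes a scaffold of the beta-catenin destruction complex, held 11 positions in 2 resistant tumours and 0 in untreated tumours, and 10 of the 11 belonged to tumour 12. Rgs9, a GTPase activator for G protein alpha subunits, held 12 positions in 3 resistant tumours and 0 in untreated tumours, with 9 in tumour 12. Arsg, a lysosomal sulfatase, held 11 in 4 resistant tumours, with 7 in tumour 12, and 3 in untreated tumours. Gna13, a G protein alpha subunit, held 5 in 3 resistant tumours, with 3 in tumour 12, and 0 in untreated tumours.

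Prkca, on the lower side, which encodes protein kinase C alpha, held 7 positions in 5 resistant tumours and 16 in 15 untreated tumours, with 1 of them in tumour 12. Pitpnc1, a phosphatidylinositol transfer protein, held 2 in 1 resistant tumour and 15 in 12 untreated tumours, and tumour 12 had none. Map2k6, a MAP kinase kinase at the far end of the higher side, held 5 in 5 resistant and 5 in 5 untreated tumours.

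The list comprised 48 centrosome and centriole genes, of which 43 had a deposited region (Cep19, Cep95, Cep131, Cntrob and Sass6 had none). All 43 held at least 1 kept position, but genes without a deposited region could not be counted, so this is not a result about the list. The median of 4 compares with 3 over all gene regions, both with chromosome 10 included. Resistant tumours hit 38 of the 43 (88.4%) and untreated tumours hit 36 (83.7%). Over all 13391 gene regions resistant tumours hit 73.3% and untreated tumours 84.1%. Of these 43, 0 had a tumour with at least 10 positions, and the highest count was 4, in Cep85l of untreated tumour 18. The shares over all gene regions were 0.406% outside chromosome 10 and 2.64% on it. With shares this low, nothing about centrosome genes is read from a 0 among 43. The most positions over all tumours fell in Cep85l (49), Cep290 (24), Cep83 (22), Cep128 (22) and Cdk5rap2 (20). Cep85l, Cep290 and Cep83 lie on chromosome 10 with the donor.

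Few other genes had their positions so concentrated. Likeness was measured as the share of kept positions held by 1 tumour, over gene regions outside chromosome 10 with at least 20 positions, of which there were 700. Cep112 ranked 2 with 86.4%. H2bc6, a histone H2B gene on chromosome 13, had 30 of 34 in untreated tumour 4 (88.2%). Mtmr12, an inactive myotubularin-type phosphatase on chromosome 15, had 26 of 31 in untreated tumour 2 (83.9%). A transcript region without a symbol on chromosome 15 had 135 of 178 (75.8%) and Cdh12, a cadherin, had 107 of 166 (64.5%), both in resistant tumour 27. Usp29, a deubiquitinase gene on chromosome 7, had 19 of 30 in untreated tumour 43 (63.3%). Such concentrations thus occurred in tumours of both groups. The most-read position of the region was the most-read kept position of its tumour for Cep112, H2bc6 and the unnamed region, and ranked 3 for Mtmr12, 8 for Cdh12 and 32 for Usp29.

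**Figure D5:**
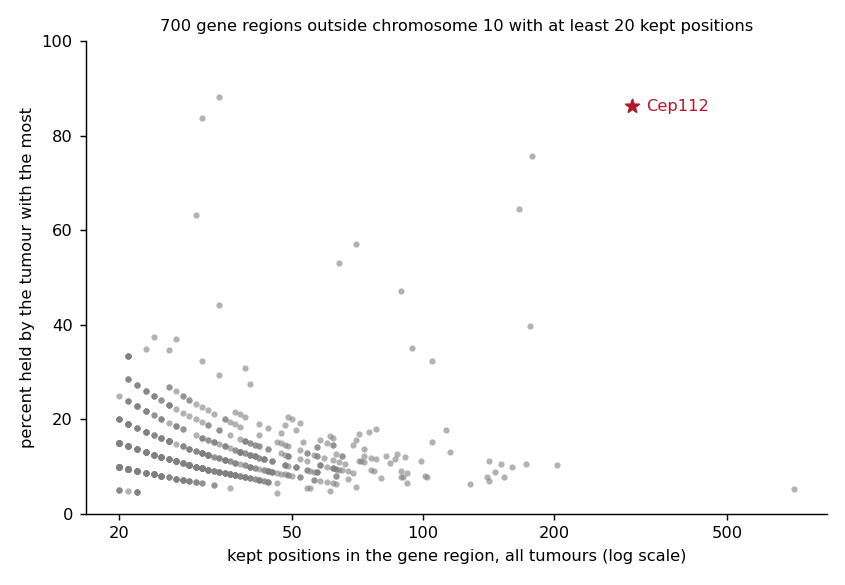
Percent of the kept positions of a gene region held by the tumour with the most, by the number of kept positions over all tumours of both groups (log scale), for 700 gene regions outside chromosome 10. Cep112, marked by a star at 302 positions and 86.4%, has the second highest percentage, and the other regions above 60% hold fewer positions.

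The one-sidedness varied among these zones. Within 500 kb of the most-read position, tumour 12 had 37 positions below and 285 above (88.5% above) at Cep112. Untreated tumour 2 had 1 below and 55 above at Mtmr12 (98.2%), untreated tumour 4 had 20 and 39 at H2bc6 (66.1%), and resistant tumour 27 had 84 and 173 at the unnamed region (67.3%). At Cdh12 tumour 27 had 186 below and 71 above (27.6%). The most-read positions of the unnamed region and of Cdh12, 20901859 and 21357423 of chromosome 15, lie less than 500 kb apart. Positions between them count as above the former and below the latter. The opposite leans at these neighbouring regions are therefore not independent. Untreated tumour 43 had 13 and 15 at Usp29 (53.6%). A strongly one-sided layout was thus seen at Mtmr12 as well as at Cep112, in a tumour of each group.

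Tumour 12 was also dense outside the window, and its densest zone there is not described here. Another was Erbb4, a receptor tyrosine kinase gene of the EGFR family on chromosome 1, which held 42 positions of tumour 12. Within 500 kb of its most-read position in Erbb4 (1162 reads) 22 lay below and 22 above. Within 1 Mb of that position lay 57 kept positions, whereas the second most-read kept position of the tumour, on chromosome 10 with 3677 reads, had 10. A position on chromosome 11 outside the window, with 1446 reads, had 14. High reads alone did not mark a dense zone in this tumour. Over the series 93621 bins of 1 Mb outside chromosome 10 held a kept position of a given tumour, 10 of these held at least 50, and 4 held at least 100. These 4 were the bins of tumour 12 with 310, which covers Cep112, and with 103, which lies beyond its 3' end, and the bins with 186 and 159 of resistant tumour 27 on chromosome 15.

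The authors' deposited table gave Cep112 268 insertions in 13 resistant tumours (25.49%), 151 on the same strand as the gene and 117 on the opposite strand. For the untreated group the authors' deposited table gave 18 insertions in 17 tumours (18.09%), 10 on the same strand and 8 on the opposite strand. Its signed score for common integration sites was 239 for resistant and -0.18 for untreated tumours. Outside chromosome 10 the authors' deposited table ranked Cep112 2 by insertions in the resistant group, 170 by number of resistant tumours hit and 2 by score. In the untreated group those ranks in the authors' deposited table were 246, 342 and 11096.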

How the data were processed

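Insertion sites of the ATP1 transposon were mapped in DNA of 51 resistant and 94 untreated tumours by splinkerette PCR from the 5' arm, per the labels' protocols, with paired reads of 100 bp from 4 pools. The submitters' processing notes name mm10 as genome build. Aligner and site caller: not given in the sources used here, so their filters are unknown. The deposited read count of each site and library was used unscaled, as the authors gave it. A further deposited number per site and library, headed div, is not defined by the file headers and served only in an alternative. The authors' table gave, per the file headers, insertions, percent of tumours and a signed −log10 p-value score per gene region, and its method was not given. No column belonged to other samples (0).

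A position and strand was kept in the tumour with the most reads, and 551 tied positions were left out. This used raw read numbers, which favours deeper libraries. Orientation was tested by exact binomial test in each tumour with at least 10 kept window positions, Benjamini-Hochberg adjusted, with a threshold of 0.05. The analysis used Python 3.11.15, numpy 2.4.6, pandas 2.3.3 and scipy 1.17.1, and was tested on simulated data. Site sequences came from the deposited contexts, which equalled RefSeq promoter sequence of the same build at 1054 of 1054 sites that could be compared. Identifiers of 12384 of 13391 gene regions matched RefSeq.

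Named genes were Cep112, its neighbours by position, the 5 centrosome genes with the most positions, and the 5 gene regions most like Cep112. Members and lists were chosen with earlier results of these data known. Erbb4, the single positions and the neighbours described in detail were picked after their values were seen. The labels speak of 53 mice, and the titles name 25 resistant and 23 untreated mice. Alternatives covered minimum reads, handling of shared positions, sequence context, window size and single libraries.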

Additional observations from a re-analysis of the deposited data

How the results depend on the processing

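With at least 2 reads per position, 0 untreated tumours had 10 kept window positions, and tumour 12 held 62.2% of the window. With at least 10 reads the window held 362 positions in resistant and 103 in untreated tumours, the region held 11 in untreated tumours, 2 resistant and 0 untreated tumours reached 10, and tumour 12 held 61.9%. Counting shared positions in every tumour gave 4 untreated tumours of at least 10 and a share of 51.1%, dropping them gave 0, and keeping TTAA sites gave 1. With 1 Mb on each side untreated tumours held 87 positions, 0 of them reached 10, and the share was 70.5%. A threshold of 5 positions gave 8 resistant and 11 untreated tumours, and 20 gave 0 untreated. Of the alternatives chosen after seeing the data, a deposited div number of at least 2 left 69 resistant and 3 untreated positions in the region, 103 and 14 in the window, 1 and 0 tumours of at least 10, and a share of 75.2%. Leaving out tumour 12 or tumour 11 before shared positions were assigned, 38 to 274 resistant positions remained in the region and 167 to 554 in the window, and the highest share of a tumour was 12.3% to 60.6%. The plus-strand excess of tumour 12 missed the threshold in the region alone (56.3%, adjusted exact p = 0.237) and with a div number of at least 2 (62.5% of 88 positions, adjusted exact p = 0.0985). The causes were not tested. Of 120 alternative values 90 stayed close to the main value, 28 moved, 2 lost the call and 0 reversed. No paired analysis was possible because the replicate numbers follow accession order and pair no samples. A library of few reads can hide low positions, so a tumour without a Cep112 position is one in which none was detected at its depth.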
